A study of Mus musculus with 8 samples.

Results

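The 38 aminoacyl-tRNA synthetase genes of the mouse were followed in 3T3-L1 adipocytes, an established mouse preadipocyte line turned into fat cells in culture. They were picked by gene symbol, as protein-coding genes named by the letter of an amino acid followed by ars, with a final 2 for the mitochondrial form, together with Eprs, Farsa, Farsb and Tarsl2. They are 38 of the 43629 genes in the count table, 21 of them for cytosolic enzymes and 17 for mitochondrial ones, and all 38 passed the filter on low counts in every comparison. Polyadenylated RNA was sequenced from 8 cultures, 2 in each of 4 groups. All cultures were differentiated with insulin, dexamethasone, isobutylmethylxanthine and rosiglitazone, and from day 8 were left untreated or given for 24 h 2 µM A66, an inhibitor selective for the p110α subunit of PI3K, or 0.5 mM palmitate on albumin at a molar ratio of 3 to 1, or palmitate and A66 at once. The study's methods name a DMSO vehicle and a lower A66 dose, and the groups here are called as the labels call them. The methods call the replicates biological repeats, and p-values measure only the spread between cultures of this single line.

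Aminoacyl-tRNA synthetases join each amino acid to its tRNA, which makes them the step between the amino acid pool and the ribosome. The cytosol and the mitochondrion hold separate sets, both encoded in the nucleus, and the mitochondrial enzymes are imported to serve the few proteins made from mitochondrial DNA. Gars and Kars encode the forms for both compartments from a single gene, and in mammals Eprs carries the glutamyl and prolyl activities in a single protein. Several cytosolic enzymes sit in a large complex with the scaffold proteins encoded by Aimp1, Aimp2 and Eef1e1. When charged tRNA runs short, the kinase GCN2 phosphorylates eIF2α, and the transcription factor ATF4 then raises amino acid enzymes, amino acid transporters and many cytosolic synthetases, which is why these genes are read as part of the integrated stress response.

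Library totals ran from 42247091 to 57529803 counts, and the common coefficient of variation between replicates was 0.0406 over the 8 libraries. Synthetases without Lars2 took between 0.371% and 0.410% of all counts in a library. The adipocyte label fitted the markers, whose summed level over 10 genes ran from 7974 to 9817 CPM (counts of a gene scaled to a common library size), against 2.80 to 5.96 CPM for 6 macrophage markers. Preadipocyte or fibroblast markers also summed to between 7130 and 7957 CPM over 9 genes. Dlk1, which marks preadipocytes, had 0 counts in all 8 libraries, and Cd34 held 0.173 to 0.392 CPM. The others were present: Ly6a held 15.4 to 24.4 CPM, Thy1 26.8 to 33.3, Pdgfra 87.9 to 108 and Pdgfrb 191 to 219. Col1a1, Col3a1 and Fn1 held 576 CPM or more. In cultures of this kind, fewer cells of a type and less RNA per cell cannot be told apart. Which cultures received A66 rests on the labels: of 13 tested FOXO and insulin feedback genes, 0 passed the edgeR test between A66 and untreated cells and 1 had an unadjusted p under 0.05, beside 1.07% of all genes called higher, 0.77% called lower and 12.8% with such a p, and the median log2 difference was 0.008. When A66 was added to palmitate, 1 of the 13 was called higher, Pik3ip1, a PI3K-interacting protein, at 0.19, and 1 lower, the transcription factor Klf15 at -0.19, beside 0.973% and 1.84% of all genes.

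In untreated cells the cytosolic synthetase mRNAs were the more abundant set. Per kb of the longest coding transcript, the cytosolic median was 37.8 CPM and the mitochondrial median 7.06 CPM. Eprs stood highest among cytosolic genes at 122 ± 0.803 CPM per kb (SD, n = 2 here and below), followed by Gars for glycine at 115 ± 2.04 and Aars for alanine at 82 ± 0.0424. Nars for asparagine at 75.0 ± 0.53 and Sars for serine at 71.6 ± 1.2 came next, further apart than their spread. In the middle of the order Farsb, a phenylalanine subunit, at 38.3 ± 1.35, Iars for isoleucine at 37.8 ± 0.678 and its mitochondrial partner Iars2 at 37.8 ± 0.365 CPM per kb did not differ beyond their spread. Tarsl2, a threonyl-tRNA synthetase-like gene, was the lowest of the cytosolic set at 6.05 ± 0.0769 CPM per kb.

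Lars2, the mitochondrial leucine enzyme, broke the pattern of its set with 278 ± 40.1 CPM per kb, the highest of all 38. As given below, its counts kept a ratio between 0.143 and 0.178 to those of Gm42418, an rRNA-related gene. What part of these counts is Lars2 mRNA was not tested. The 16 other mitochondrial genes had a median of 6.97 CPM per kb, and the lowest were Sars2 for serine at 3.72 ± 0.146, Pars2 for proline at 2.95 ± 0.234 and Mars2 for methionine at 1.98 ± 0.0348. Mars2 was divided by a transcript of 11294 bases, long for the family, and its level before that division was 22.4 CPM.

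**Figure D1:**
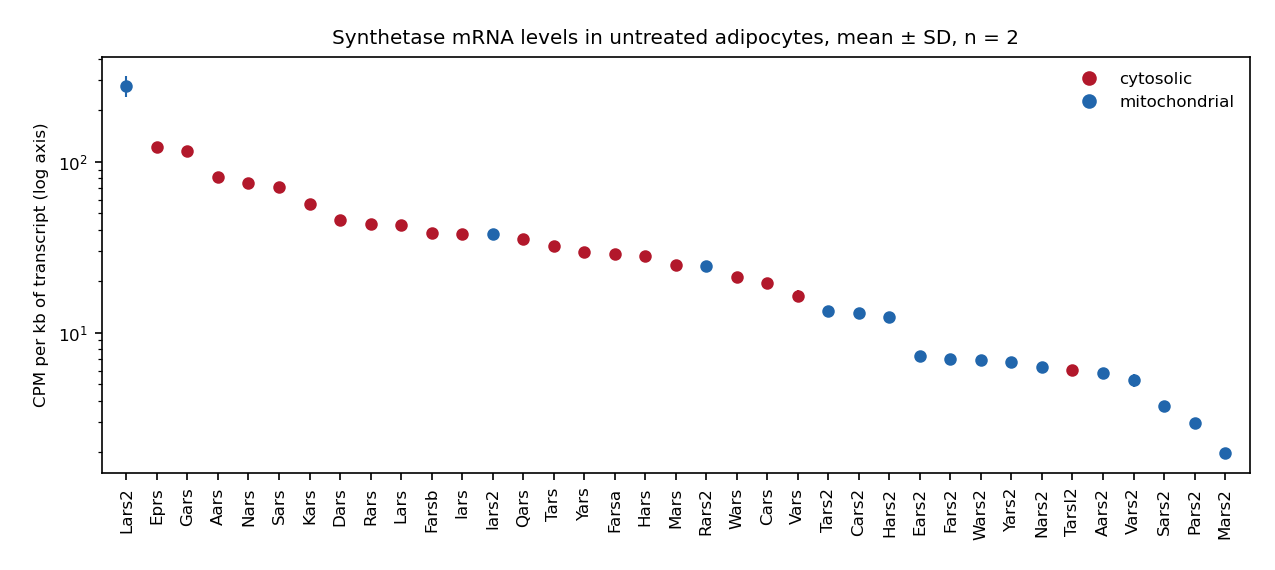
Level of the synthetase mRNAs, 1 mitochondrial gene left out, in untreated adipocytes in CPM per kb of the longest coding transcript on a log axis, ordered from high to low, with red points for cytosolic and blue points for mitochondrial genes and bars for the SD of 2 libraries. Cytosolic genes fill most of the upper ranks, from Eprs at 122 down. Lars2 at 278 is the exception at the top, and Tarsl2 at 6.05 lies among the mitochondrial genes. What part of the Lars2 counts is its mRNA was not tested.

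The gap between the partners that charge the same amino acid was uneven. Eprs exceeded Pars2 by 43.6 and 39.4 times per kb in the 2 untreated libraries, and Sars exceeded Sars2 by 18.5 and 20.1 times. Aars exceeded Aars2 by 14.2 and 14 times. At the other end Iars and Iars2 were level, with ratios of 1.02 and 0.982, Cars for cysteine exceeded Cars2 by 1.46 and 1.5 times, and Rars for arginine exceeded Rars2 by 1.83 and 1.70 times. Lars was the lower partner, at 0.166 and 0.143 of the Lars2 level, which carries the limit given above.

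The 5 comparisons were made by edgeR's quasi-likelihood test, with p-values adjusted over all genes by the Benjamini-Hochberg method and a gene called at an adjusted p under 0.05. They ask what A66 does alone, what palmitate does alone and what each adds to the other. They also ask whether the A66 difference changes with palmitate (the interaction). The labels name albumin only for the groups given palmitate, so palmitate and its albumin carrier cannot be told apart. The comparisons share libraries, so their values are given side by side and not as separate evidence. Against A66 alone, palmitate plus A66 raised 7 of 21 cytosolic synthetases and lowered none, where 1.46% of all 14587 genes tested were called higher and 1.27% lower. None of the 17 mitochondrial genes was called in that comparison. The other comparisons gave 1 call in all, Lars2 with A66 alone.

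The 7 genes were Eprs, Wars for tryptophan, Iars, Cars, Lars for leucine, Gars and Aars, with fold changes from 1.11 for Aars to 1.19 for Eprs. Eprs (chr1:185363044-185428360, plus strand, GRCm38) gave 564 and 568 CPM with A66 and 670 and 680 with palmitate plus A66. Untreated cells gave 596 and 601 CPM, and palmitate alone 641 and 590. Both combination libraries thus lay above the other 6, and both A66 libraries lay below them. The difference between the combination and A66 was 0.25 ± 0.043 on the log2 scale (SE), a 1.19-fold rise, with an edgeR adjusted p of 0.000882.

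Wars (chr12:108860030-108894174, minus strand) gave 52.2 and 58.6 CPM with A66 and 67.5 and 63.1 with the combination, while untreated cells gave 59.8 and 59.4 and palmitate 67.8 and 62.1. Its combination libraries lay among those of palmitate and above those of A66 and untreated cells. The difference from A66 was 0.24 ± 0.057 on the log2 scale, edgeR adjusted p = 0.0206. Iars (chr13:49682100-49734267, plus strand) gave 160 and 168 CPM with A66, 195 and 182 with the combination, 170 and 165 in untreated cells and 182 and 168 with palmitate. No other group reached the higher of its combination libraries. The difference was 0.20 ± 0.047 on the log2 scale, edgeR adjusted p = 0.0166. Iars shares 1630 bases of its transcript, in exact runs of 25 bases or longer, with the pseudogene Gm4849.

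Cars (chr7:143557230-143600090, minus strand) gave 58.9 and 61.3 CPM with A66, 69.3 and 67.1 with the combination, 61.9 and 63.2 in untreated cells and 66.2 and 63.1 with palmitate. Its combination libraries were the highest of the 8, and the difference from A66 was 0.18 ± 0.047 on the log2 scale, edgeR adjusted p = 0.0362. Lars, on chromosome 18, gave 162 and 173 CPM with A66, 191 and 188 with the combination, 165 and 174 in untreated cells and 186 and 171 with palmitate. The combination was again above the other 6 libraries, by 0.18 ± 0.047 over A66 on the log2 scale, edgeR adjusted p = 0.0385.

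Gars (chr6:55038007-55079500, plus strand), whose product works in the cytosol and the mitochondrion, gave 267 and 272 CPM with A66, 302 and 299 with the combination, 270 and 276 in untreated cells and 293 and 285 with palmitate. The palmitate libraries stood between the untreated and the combination libraries. The log2 difference of the combination from A66 was 0.16 ± 0.040, edgeR adjusted p = 0.0304. Aars (chr8:111033144-111057664, plus strand) gave 439 and 457 CPM with A66, 505 and 492 with the combination, 472 and 471 in untreated cells and 506 and 497 with palmitate. Here the combination and palmitate overlapped, and A66 lay below untreated cells. The log2 difference of the combination from A66 was 0.15 ± 0.040, edgeR adjusted p = 0.0365. The last 1326 bases of the longest Aars transcript lie on the same strand as exon sequence of Exosc6, where reads of the genes cannot be told apart.

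**Figure D2:**
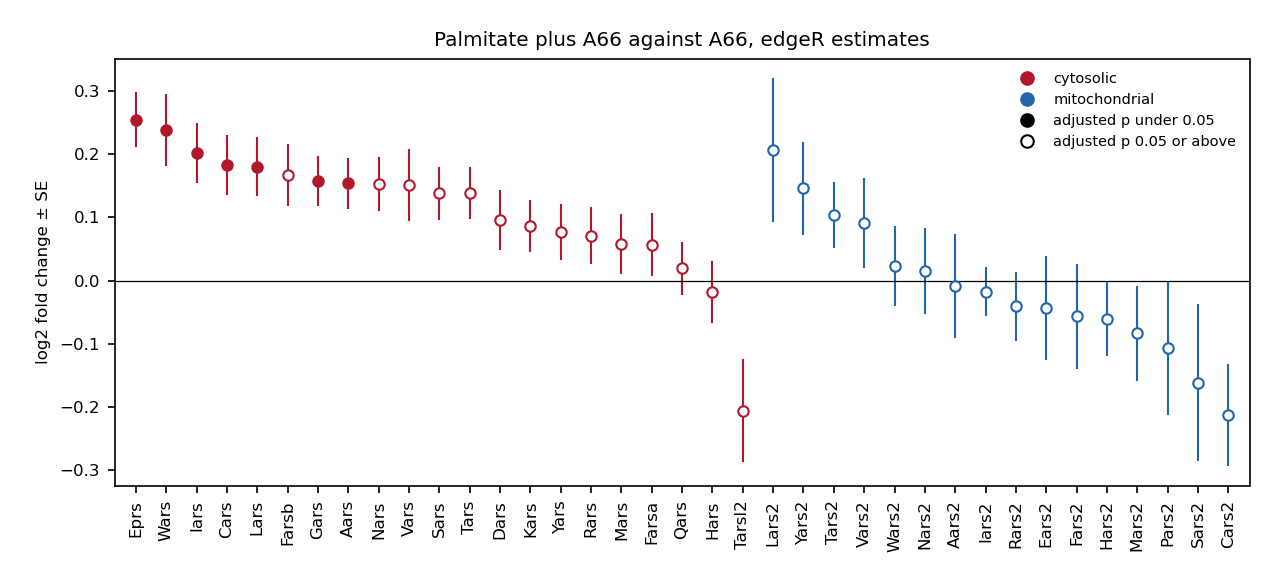
Log2 fold change of palmitate plus A66 against A66 for the synthetase genes, 1 mitochondrial gene left out, with bars for the SE of the edgeR estimate, red for cytosolic and blue for mitochondrial genes, and filled points for an adjusted p under 0.05. The 7 filled points are all cytosolic and run from 0.15 for Aars to 0.25 for Eprs, and the mitochondrial points lie on both sides of 0.

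Of the 14 cytosolic genes that were not called, Farsb at 0.17 ± 0.049 (edgeR adjusted p = 0.0737), Nars at 0.15 ± 0.043 (0.0572), Sars at 0.14 ± 0.042 (0.0819) and Tars for threonine at 0.14 ± 0.041 (0.0741) came closest. Hars for histidine, at -0.019 ± 0.049, and Tarsl2, at -0.21 ± 0.081, were the only ones with a negative estimate, and neither passed the test. Over the 21 genes the median log2 difference was 0.138, beside 0.0004 over all genes tested, and 19 of 21 estimates lay above 0, beside 50.2%. The combination lay wholly above A66 in 17 of 21 genes and wholly below in 1, beside 23.2% and 23.4% of all genes. An unadjusted p under 0.05 was reached by 14 of 21, beside 14.6% of all genes.

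The number of calls changed with libraries left out. Where this left an A66 or combination group with 1 library, that library was assumed to vary like the other groups, so that calls kept or lost there are no test of stability. Of the 7 genes, only Eprs was still called without A66 replicate 1 and without palmitate plus A66 replicate 1. Without palmitate plus A66 replicate 2, 3 of the 7 were called (Eprs, Iars and Wars), and Aars, Cars and Gars lost their calls without A66 replicate 2. With scaling by library size alone 3 of the 7 were called, and Aars, Cars, Gars and Lars had edgeR adjusted p-values from 0.0669 to 0.0762. Eprs was called in each of the 8 fits that left out a library. The log2 differences themselves stayed above 0 in all 7 genes in these 8 fits, from 0.243 to 0.266 in Eprs, 0.156 to 0.323 in Wars, 0.153 to 0.249 in Iars, 0.154 to 0.211 in Cars, 0.132 to 0.229 in Lars, 0.143 to 0.172 in Gars and 0.126 to 0.182 in Aars. The adipocyte markers moved with the same contrast: 7 of 10 were called lower in palmitate plus A66 than in A66 and none higher, beside 1.27% and 1.46% of all genes, with a median of -0.251, Retn at -0.32, Plin1 at -0.28 and Adipoq at -0.25. Their summed level was 9817 and 9274 CPM with A66 and 7974 and 8746 with the combination. Of 8 tested preadipocyte or fibroblast markers none was called by edgeR, 3 had an unadjusted p under 0.05, and their sum was 7511 and 7603 CPM against 7267 and 7422. Of 6 macrophage markers 2 were tested and 1 was called higher, Cd68, with sums of 2.92 and 3.43 against 5.65 and 5.96 CPM. Csf1r, the other one tested, was not called, at 0.30 ± 0.604 on the log2 scale, and held between 0.128 and 0.277 CPM. Ptprc and Itgam reached at most 0.0193 and 0.0519 CPM, and Adgre1 and Fcgr1 had 0 counts in all 8 libraries. The part of the adipocyte marker shift in the synthetase result was not tested.

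With A66 alone, no cytosolic synthetase was called, where 1.07% of 14158 genes were called higher and 0.77% lower. The cytosolic median was -0.031, and 4 of 21 estimates lay above 0, beside 49.6% of all genes. Eprs stood at -0.078 ± 0.037 against untreated cells (edgeR adjusted p = 0.386) and Wars at -0.10 ± 0.055 (0.450). A66 lay wholly below untreated cells in 10 of 21 genes and wholly above in 2, beside 22.3% and 20.3% of all genes. Eprs alone of the 21 had an unadjusted p under 0.05, beside 12.8% of all genes, and DESeq2 called none of them. Of the adipocyte markers none was called by edgeR, and 6 of 10 had an unadjusted p under 0.05. Their median was 0.046, with 7 of 10 estimates above 0. The median of the cytosolic synthetases was -0.059 without A66 replicate 2.

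With palmitate alone, no cytosolic synthetase was called either, where 0.631% of genes were called higher and 0.542% lower. The median was 0.069, and 19 of 21 estimates lay above 0, beside 50.2% of all genes. Mars for methionine came closest to a call at 0.16 ± 0.047 (edgeR adjusted p = 0.111), with 73.0 and 74.7 CPM in untreated cells and 81.7 and 83.5 with palmitate, and its exons overlap those of Ddit3 on the other strand by 68 bases. Palmitate lay wholly above untreated cells in 11 of 21 genes and wholly below in 1, Tarsl2, beside 20.4% and 20.2% of all genes. An unadjusted p under 0.05 was reached by 7 of 21, beside 12.0% of all genes, and DESeq2 called none. The median was 0.031 without palmitate replicate 1 and 0.102 without palmitate replicate 2. In the same comparison all 10 adipocyte markers had estimates below 0 (median -0.085), with none called by edgeR and 3 unadjusted p-values under 0.05, and 1 of 8 preadipocyte or fibroblast markers was called higher.

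When A66 was added to palmitate, no cytosolic gene was called, where 0.973% of genes were called higher and 1.84% lower. The median was 0.046, and 14 of 21 estimates lay above 0, beside 49.7% of all genes. Eprs came closest at 0.13 ± 0.043, with an adjusted p of 0.104 in edgeR and 0.0353 in DESeq2, and 4 of 21 had an unadjusted p under 0.05, beside 14.4% of all genes. The combination lay wholly above palmitate in 10 of 21 genes and wholly below in 3, beside 21.9% and 22.4% of all genes. The median was 0.020 without palmitate replicate 2. In the same comparison 3 of 10 adipocyte markers were called lower and none higher (median -0.114, 8 of 10 below 0), and 1 of 8 preadipocyte or fibroblast markers was called lower. Their part in the synthetase values was not tested. Whether the A66 difference changed with palmitate was tested as an interaction, in which 1 gene of 14587 (0.00686%) was called and no synthetase. Its cytosolic median was 0.065, with 16 of 21 estimates above 0, beside 50.6% of all genes, and 2 unadjusted p-values under 0.05, beside 7.92%. That median was 0.037 without A66 replicate 1 and 0.043 without palmitate replicate 2. Of the adipocyte markers 9 of 10 had an interaction below 0 (median -0.144), with none called by edgeR and 4 unadjusted p-values under 0.05, and 4 of 8 preadipocyte or fibroblast markers had such a p. Eprs had an interaction of 0.22 ± 0.060 on the log2 scale (adjusted p = 0.340 in edgeR and 0.0371 in DESeq2).

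**Figure D3:**
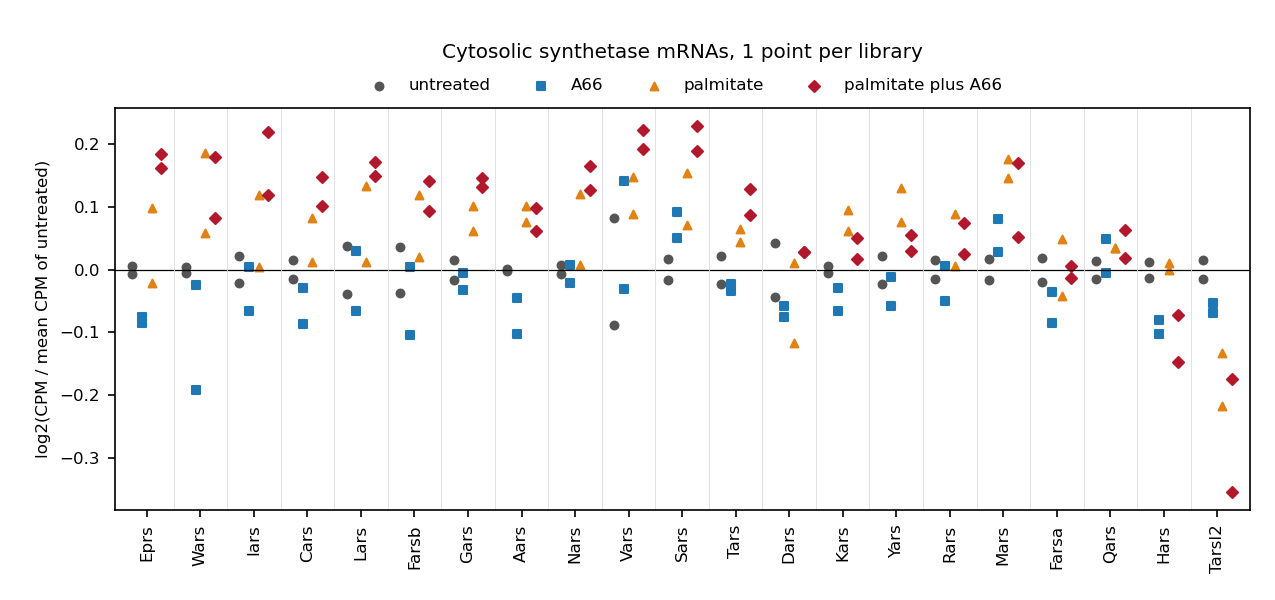
Each cytosolic synthetase in each library as the log2 ratio of its CPM to the mean of the 2 untreated libraries, with circles for untreated, squares for A66, triangles for palmitate and diamonds for palmitate plus A66, ordered by the difference of the combination from A66. From Eprs to Tars at the left the diamonds lie above the squares, and Hars and Tarsl2 at the right show diamonds below 0.

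The calls were not limited to the multi-synthetase complex. Of its 8 synthetase genes, Eprs, Iars and Lars were called in palmitate plus A66 against A66, and of the 13 cytosolic genes outside it Aars, Cars, Gars and Wars were, beside 1.46% of all genes called higher. The median log2 difference was 0.091 inside the complex and 0.152 outside, with 8 of 8 and 11 of 13 estimates above 0, beside 50.2% of all genes. The difference between the sets was not tested. Inside the complex, Qars for glutamine at 0.020 ± 0.042 and Mars at 0.058 ± 0.047 were low, and Kars for lysine, which also serves the mitochondrion, stood at 0.086 ± 0.041. Kars gave 119 and 122 CPM with A66 and 129 and 126 with the combination, beside 125 and 124 in untreated cells and 133 and 130 with palmitate, so that its highest values were those of palmitate alone. Its transcript shares short exact stretches with several pseudogenes, among them 289 bases with Gm8428. The scaffold genes Aimp1, Aimp2 and Eef1e1 had no edgeR call in any comparison, and their differences between combination and A66 were 0.063, 0.15 and 0.092, with no unadjusted p under 0.05. In palmitate against untreated cells 2 of the 3 had an unadjusted p under 0.05, beside 12.0% of all genes.

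Synthetases fall into class I and class II by the fold of their catalytic domain, and Eprs holds a domain of each. Of 9 class I cytosolic genes 4 were called in the combination against A66 (Cars, Iars, Lars and Wars), beside 1.46% of all genes called higher, with a median of 0.152. Of 11 class II genes 2 were called (Aars and Gars), with a median of 0.138.

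The mitochondrial set without Lars2 showed no edgeR call in any comparison when all libraries were used. The medians of log2 difference over its 16 genes were -0.027 for A66, -0.042 for palmitate, -0.017 for A66 added to palmitate and -0.029 for palmitate added to A66. The sign changed with libraries left out: over all 17 genes the palmitate median of -0.04 became 0.015 without palmitate replicate 2, and that of A66 added to palmitate, -0.016, became 0.036 without palmitate replicate 1, and 0.012 and 0.006 without palmitate plus A66 replicates 1 and 2. An unadjusted edgeR p under 0.05 was reached by none of the 16 in the first 3 of these and by 1 in the last, Cars2 for cysteine, at -0.21 ± 0.081 (edgeR adjusted p = 0.195), and DESeq2 called none of the 17 mitochondrial genes in any comparison. Cars2 gave 23.3 and 25.5 CPM with A66 and 18.9 and 23.2 with the combination, beside 25 and 24.9 in untreated cells and 22.3 and 22.5 with palmitate. The combination libraries lay below those of A66 by a margin smaller than the gap between the combination replicates, and without palmitate plus A66 replicate 2 Cars2 was called lower, at -0.37 (edgeR adjusted p = 0.026). The largest positive estimate of this set in the same comparison was that of Yars2 for tyrosine, at 0.15 ± 0.073 (adjusted p = 0.362). In sum the 16 genes held 578 and 590 CPM in untreated libraries, 573 and 569 under A66, 573 and 562 under palmitate and 568 and 567 with the combination.

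The 3 members lowest per kb were called in no comparison by edgeR. Mars2, which was not among the 3 lowest before division by length, held 22.1 and 22.7 CPM in untreated libraries, 22.6 and 20.2 with A66, 22.6 and 20.7 under palmitate and 20.2 and 20.3 with the combination. Pars2 gave 8.48 and 9.49, 8.79 and 9.42, 7.62 and 8.09, and 8.26 and 8.63 CPM in the same order, and Sars2 gave 7.13 and 6.75, 6.74 and 6.90, 5.77 and 7.01, and 5.77 and 6.42. In Pars2 both palmitate libraries lay below both untreated ones, as in 20.2% of all genes, and both combination libraries lay above those of palmitate, as in 21.9%, and below those of A66, as in 23.4%. In Mars2 the combination lay below palmitate, as in 22.4%, and in Sars2 below A66, and their groups overlapped in the other comparisons between groups. The SE of a log2 difference ran up to 0.124 for Sars2 in the comparisons between groups. Iars2, the most abundant of the 16, gave between 198 and 208 CPM in all 8 libraries. Over the exons of all its transcripts, 2034 bases lie opposite Rab3gap2 exons.

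Lars2 (chr9:123366927-123462666, plus strand) was the exception again. Untreated cells gave 971 and 1190 CPM and palmitate gave 1250 and 1610. The A66 libraries held 1390 and 1910 CPM and the combination 1720 and 2090. All 6 treated libraries lay above both untreated ones, and the A66 group overlapped that of palmitate and that of the combination. In all 4 groups the library numbered 2 was higher than the library numbered 1. A66 alone gave a log2 difference of 0.62 ± 0.090, a 1.53-fold rise, with an edgeR adjusted p of 0.000394. Palmitate gave 0.41 ± 0.115 (adjusted p = 0.0964), A66 added to palmitate 0.41 ± 0.115 (0.0532) and palmitate added to A66 0.21 ± 0.114 (0.427). Fitted on the 4 libraries compared alone, edgeR called the first 2 of these (adjusted p = 0.00942 and 0.0125) and not the last (0.251). DESeq2 did not call the A66 difference, with an adjusted p of 0.345, and over all settings of that comparison the adjusted p ran from 5.33e-76, in edgeR without a filter, to that value. The estimates moved with single libraries. With libraries left out the A66 estimate ran from 0.371, without A66 replicate 2, to 0.828, without A66 replicate 1. The palmitate estimate ran from 0.216, without palmitate replicate 2, to 0.578, without palmitate replicate 1. That of A66 added to palmitate ran from 0.242, without palmitate replicate 1, to 0.607, without palmitate replicate 2. That of palmitate added to A66 ran from -0.005, without A66 replicate 1, to 0.453, without A66 replicate 2.

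Several RNAs that carry little or no poly(A) tail were also called higher with A66. Gm42418, which RefSeq names Rn18s-rs5 after 18S rRNA, gave 5960 and 6700 CPM in untreated cells and 7570 and 9540 with palmitate, 9750 and 11200 with A66 and 10100 and 12900 with the combination. The ratio of Lars2 to Gm42418 stayed between 0.143 and 0.178 in all 8 libraries. Gm42418 was called higher with A66 (0.73), with palmitate (0.43) and with A66 added to palmitate (0.42, all edgeR). The mitochondrial ribosomal RNAs mt-Rnr1 and mt-Rnr2 were called higher with A66, at 0.66 and 0.58, and with A66 added to palmitate, at 0.53 and 0.47. The ratio of Lars2 to mt-Rnr1 stayed between 0.257 and 0.312 and that to mt-Rnr2 between 0.175 and 0.204. Rpph1 and Rn7sk, small RNAs made by RNA polymerase III, were called higher with A66 at 1.48 and 0.55. They did not follow Lars2 as closely as Gm42418, mt-Rnr1 and mt-Rnr2 did. The ratio of Lars2 to Rpph1 ran from 962 to 2420 and that to Rn7sk from 158 to 256. With palmitate added to A66 they stood at -0.21 and -0.17, neither called, where Lars2 was at 0.21. The mitochondrial messengers mt-Nd1 and mt-Co1 were not called in any comparison and had A66 estimates of -0.091 and -0.017, with an unadjusted p under 0.05 for mt-Nd1.

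The Lars2 coding sequence ends at base 2908 of its 3894-base longest transcript. The longest exact run it shares with any transcript of the mitochondrial genome is 14 bases, with mt-Rnr1. It shares 116 bases with AA474408, in exact runs of 25 bases or longer between bases 3172 and 3313. With Gm15564 it shares 52 bases, and AA474408 and Gm15564 held under 1 CPM in every library. Only transcripts of GENCODE M21 were searched, so a stretch shared with ribosomal RNA outside that set would not have been found. Lars2 made up between 0.0976% and 0.206% of all counts, so that the share of the whole family with it ran from 0.479% in an untreated library to 0.606% in a combination library. The part of RNA without poly(A) tails in the Lars2 result was not tested.

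**Figure D4:**
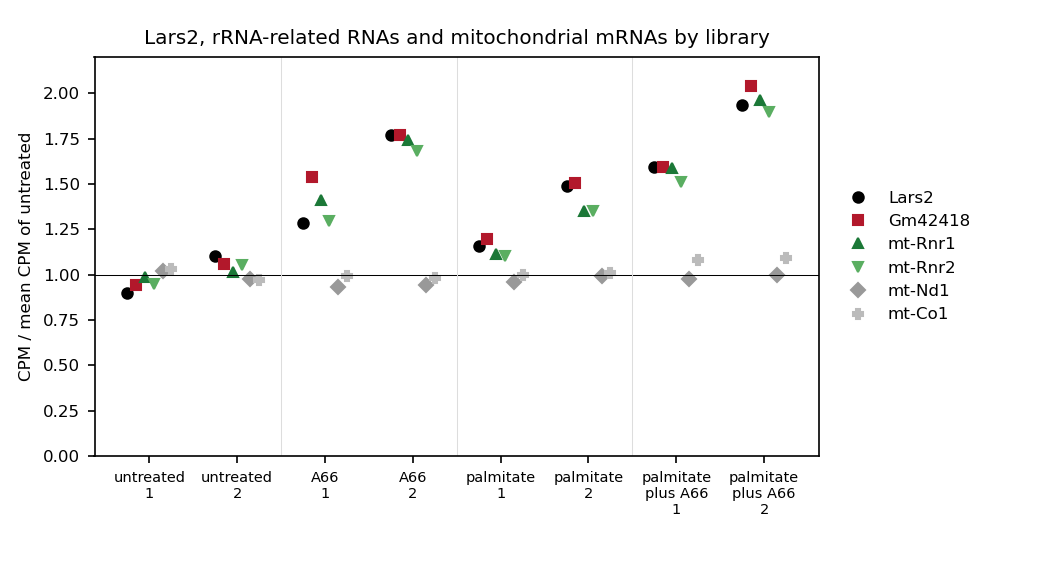
CPM of Lars2, Gm42418, mt-Rnr1, mt-Rnr2, mt-Nd1 and mt-Co1 in each of the 8 libraries, each divided by the mean of the 2 untreated libraries, with 1 point per gene and library. Lars2 and the 3 rRNA-related genes are high and low in the same libraries, and the messengers mt-Nd1 and mt-Co1 stay close to 1.

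The promoters of the cytosolic genes were searched for the C/EBP-ATF response element, the composite site that ATF4 binds with C/EBP proteins, as the letters TGATGNAA on either strand. RefSeq windows from 250 bases before to 50 after the transcript start (GRCm38.p6) were at hand for 14 cytosolic and 14 mitochondrial members. The letters occurred in 5 of 14 cytosolic windows (Aars, Gars, Iars, Tars and Yars), in 0 of 15 mitochondrial windows, and in 3.97% of all 32851 windows. Among the cytosolic windows they lay in 3 of 4 of called genes and in 2 of 10 of the others, a split that was not tested. Cars, Lars and Wars were called and had no window. The cAMP response element TGACGTCA was in 0 of 14 cytosolic windows and 1.79% of all windows. The E-box CACGTG was in 4 of 14 cytosolic windows (Aars, Farsb, Iars and Tars) and 7.15% of all windows. It lay in 2 of 4 windows of called genes, 2 of 10 of the others and 1 of 15 mitochondrial windows, that of Ears2. Its last letters TG are also the first of TGATGNAA, so matches can share bases, which was not checked. Cars, Hars, Lars, Nars, Rars, Vars and Wars, and Hars2 and Pars2 were among those with no entry. A match is a description of these letters and not a shown site. The upstream matches of Gars and Tars are printed on the gene's strand, with the match, here in its reverse form TTNCATCA, in capitals, to set a called gene beside one that was not called. They stand at chr6:55037960-55037989 (plus strand) and chr15:11399659-11399684 (minus strand).
Gars: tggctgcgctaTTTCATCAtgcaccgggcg
Tars: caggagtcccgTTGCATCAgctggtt

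The first base of the match lay 30 bases before the start in Gars and 15 in Tars. In Iars and Yars the only match began 7 and 3 bases after the start. Of these 5 genes, Aars, Gars and Iars were called in palmitate plus A66 against A66, Tars stood at 0.14, and Yars for tyrosine at 0.077 ± 0.044 (edgeR adjusted p = 0.438).

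The other genes of the amino acid response were read in the same way. Of 25 tested genes for ATF4 and its targets, 7 were called higher in palmitate plus A66 against A66 and none lower, beside 1.46% and 1.27% of all genes, with a median of 0.109 and 12 unadjusted p-values under 0.05. Mthfd2, a mitochondrial folate enzyme, gave 87.2 and 89.7 CPM with A66 and 119 and 117 with the combination, a log2 difference of 0.42 ± 0.050 (edgeR adjusted p = 1.32e-05). Asns, the asparagine synthetase, gave 186 and 186 CPM against 234 and 228, or 0.31 ± 0.045 (0.00013). Ppp1r15a, which directs the removal of phosphate from eIF2α, stood at 0.37 ± 0.053 (0.000122). In these 3 genes the groups were apart by more than the gap between replicates. In the same comparison 7 of 10 adipocyte markers were called lower, beside 1.27% of all genes, with a median of -0.251. The part of that shift in the values of this list was not tested.

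With palmitate alone 1 of 25 was called higher by edgeR, Mthfd2 at 0.22, and none lower, beside 0.631% and 0.542% of all genes, and 11 had an unadjusted p under 0.05, beside 12.0%. With A66 alone none was called higher and 2 lower, Nupr1, a stress-induced chromatin protein, at -0.30 and Gpt2, an alanine aminotransferase, at -0.20, beside 1.07% and 0.77% of all genes, and 7 had an unadjusted edgeR p under 0.05, beside 12.8%. When A66 was added to palmitate, Atf3 was called higher at 0.38, and Ddit4, an inhibitor of mTORC1, at -0.44 and Nupr1 at -0.17 were called lower, beside 0.973% and 1.84% of all genes, and 10 had an unadjusted edgeR p under 0.05, beside 14.4%. In the interaction no gene of this list was called by edgeR, and 7 had an unadjusted p under 0.05, beside 7.92% of all genes.

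Of 14 amino acid transporters, 3 were called higher in palmitate plus A66 against A66 and none lower, beside the same 1.46% and 1.27% of all genes. Slc7a11, the cystine importer, gave 14.4 and 14.4 CPM with A66 and 26.4 and 23.7 with the combination (0.80 ± 0.10 on the log2 scale, edgeR adjusted p = 2.27e-05). Slc7a1, an importer of cationic amino acids, stood at 0.29 and Slc3a2, the shared heavy chain of several transporters, at 0.16. The part of the adipocyte marker shift of this comparison in the transporter values was not tested. With A66 alone 1 of 14, Slc7a5, a leucine importer, was called lower at -0.25, beside 0.77% of all genes. When A66 was added to palmitate, 1 of 14 was called lower, Slc7a5 at -0.18, and 1 higher, Slc7a11 at 0.44, beside 1.84% and 0.973%. No transporter was called with palmitate alone by edgeR, and 2 of 14 had an unadjusted p under 0.05, beside 12.0% of all genes.

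Of 6 genes for eIF2α kinases and the sensing of uncharged tRNA, Eif2ak2, the kinase activated by double-stranded RNA, was called lower with A66 at -0.23 and with A66 added to palmitate at -0.27, beside 0.77% and 1.84% of all genes. Eif2ak4, which encodes GCN2, was not called in any comparison. Of 12 partners in tRNA editing and mitochondrial aminoacylation and of 10 mitochondrial translation factors, none was called by edgeR in any comparison. With A66 alone, 1 of the 12 and 2 of the 10 had an unadjusted p under 0.05, beside 12.8% of all genes, and with A66 added to palmitate 3 of the 12 and none of the 10 had, beside 14.4%. In the other comparisons between groups and in the interaction it was at most 1 of the 12 and none of the 10.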

How the data were processed

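Poly(A)-selected stranded libraries were made from 8 cultures of 3T3-L1 adipocytes. Per the labels and the study's methods, the authors aligned paired reads to GRCm38 with TopHat2 2.0.11, counted them per Ensembl gene with HTSeq and deposited raw counts without normalization. The strand setting, the HTSeq version and the annotation release are not given in the sources used here, so reads from overlapping genes may not be separable. The deposited file also holds the authors' DESeq2 output (mean normalized count, log2 fold change with its standard error, a test statistic score, p-value and adjusted p-value), which was not used.

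Samples were grouped by the treatment in the labels. Counts were analysed in R 4.3.3 with edgeR 4.0.16 (TMM normalization, filterByExpr with a minimum count of 10, quasi-likelihood tests, Benjamini-Hochberg adjustment over all genes tested, threshold 0.05). A66 was compared with untreated cells in its 4 libraries, and the other comparisons and the interaction were fitted on all 8 libraries. The fit was tested on simulated data. CPM use TMM factors over 8 libraries. Levels per kb use the longest coding transcript of GENCODE M21. A floor of 3 counts lies between 0.0521 and 0.0710 CPM and covers counting error only, since no molecular identifiers are named. Of the 43629 genes, 42548 matched GENCODE by identifier.

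Every synthetase of the rule was analysed and is in the counts and medians, and 1 member and 1 sequence are not reported here. Values per library are given for called members, the 3 highest and 3 lowest by level per kb, those serving both compartments, and a few chosen after their values were seen (Mars, Cars2, Iars2), and from each other list up to 3 genes with the smallest p per comparison. Other genes outside this rule (Eif2ak4, cell markers such as Cd68 and Dlk1, the RNAs beside Lars2) were also named after their values were seen. The members and lists were chosen with earlier results of these data known. Alternatives were other normalizations and filters, DESeq2 1.42.0, a trend on transcript length, the replicate number as a block, other sets of libraries and each library left out.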

Additional observations from a re-analysis of the deposited data

How the results depend on the processing

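Each comparison has 2 libraries a group, and where 1 is left out the other is assumed to vary like the other groups. The counts of synthetases called follow, and where they moved the cause was not tested. For A66 against untreated cells (1, Lars2) DESeq2 called 0. For palmitate against untreated cells (0), 2 were called without a filter on low counts, and 1 with the replicate block, with the block and the length trend, and in the 4 libraries compared, and leaving out libraries gave 0 to 1. For palmitate plus A66 against palmitate (0), 2 were called without a filter, 1 with library size only, with DESeq2, with the length trend, with the replicate block alone or with the length trend, and in the 4 libraries compared, and leaving out libraries gave 0 to 1. For palmitate plus A66 against A66 (7), library size only gave 3, no filter 11 and the 4 libraries compared 11, and leaving out libraries gave 1 to 9, with 1 lower call, Cars2, among the 4 without palmitate plus A66 replicate 2. DESeq2 gave 10 there and the replicate block 9. For the interaction (0), no filter and DESeq2 gave 1 each.

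Same-numbered libraries did not deviate together (correlations of deviations from -0.152 to 0.162 over 9350 genes), so the numbers are not read as pairs. For A66 and palmitate plus A66 the correlation was the -0.152, and in fits added after seeing the data, on the 4 libraries of these groups, a replicate block called 13 synthetases and the crossed pairing 14. With the replicate block over 8 libraries edgeR called the Lars2 differences for palmitate (adjusted p = 4.85e-06), for A66 added to palmitate (5.33e-06) and for palmitate added to A66 (0.00459). Without a filter, the edgeR p-values of Lars2 fell to 5.33e-76, and such p-values are not relied on. The Lars2 estimate for palmitate plus A66 against A66 ran from -0.005 to 0.453 with libraries left out, with the lowest value without A66 replicate 1, and its interaction from -0.414 to 0.047, with the highest value without A66 replicate 2. The cytosolic median kept its sign under every alternative run in all 5 comparisons, and for palmitate plus A66 against A66 it ran from 0.112 to 0.142 with libraries left out. The mitochondrial median did not for palmitate, for A66 added to palmitate, or for the interaction, where it was 0.01 and fell to -0.007 without palmitate replicate 2. Of 160 medians recomputed, 14 moved by more than the replicate spread. Of 80 Lars2 values 50 kept direction and side of the threshold, 27 passed it anew, 1 no longer passed it and 2 changed sign, and of 119 values of the 7 other called genes 96 stayed past it and 23 did not. The median of all genes lay between -0.0197 and -0.004 with scaling by library size alone.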
